A study of Mus musculus with 6 samples.

Results

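Fibroblast growth factor (FGF) ligands and receptors were followed in mouse bone marrow stromal cultures given TNF-α, an inflammatory cytokine. The 9 genes are the ligands Fgf1, Fgf2, Fgf7, Fgf10 and Fgf18, the signalling receptors Fgfr1, Fgfr2 and Fgfr3, and the receptor Fgfrl1. They were chosen by gene symbol, and all 9 were found among the 15634 genes listed. The cells are MSCs (mesenchymal stem cells), adherent cells of the marrow stroma able to form bone, fat and cartilage. They came from C57BL/6J mice, labelled wild type. In the Control group are 3 libraries of unstimulated cells, and in the TNF group are 3 libraries of cells exposed to TNF-α at 10 ng/mL. Both groups carry a time label of 24 h, and the growth medium held 15% fetal bovine serum. The age of the mice, and the culture or animal behind each replicate, are not given in the sources used here. Each p-value therefore measures the spread between these samples, which may be technical.

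FGFs are secreted proteins that bind receptor tyrosine kinases together with heparan sulfate, a sugar chain on cell-surface and matrix proteoglycans. The active receptor signals through the adaptor FRS2 to the RAS and ERK kinases, which induce ETS transcription factors and inhibitors of the Sprouty and DUSP families. In bone, FGF2 and FGF18 act on osteoblasts and cartilage cells, and FGFR3 restrains growth-plate chondrocytes. FGF7 and FGF10 are made by mesenchyme and act mainly on epithelia that carry the IIIb splice form of FGFR2.

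Total counts per library ranged from 45629973 to 77142418. The 18S ribosomal RNA share of counts was 19.4% in TNF library 2, against 1.10% to 3.55% elsewhere. Mitochondrial mRNA took 4.45% of counts in Control library 2 and 1.59% to 2.16% elsewhere. On the second principal component (12% of variance) that library lay at -29.4, and the other Control libraries at 16.8 and 17.2. TNF libraries 1, 2 and 3 lay at -4.13, 25.2 and -25.6. All 12 stromal markers searched for were listed, among them Pdgfra, Pdgfrb and Cxcl12. In TNF 4 of them rose (Pdgfra, Cd44, Lepr and Vcam1) and 3 fell (Thy1, Col1a1 and Col1a2). Their sum was 6959 to 7921 TPM in Control and 4633 to 5376 TPM in TNF libraries. It was mostly collagen. Col1a1 had 2369 ± 308 TPM in Control and 1089 ± 75.6 TPM in TNF, and Col1a2 had 3274 ± 61.6 and 1912 ± 150 TPM (SD, n = 3 each). All 12 macrophage markers were listed as well, with a summed level of 2963 to 4166 TPM in Control and 2065 to 2423 TPM in TNF libraries. Of the macrophage markers 2 rose and 5 fell. Most of their sum was Lyz2, which was not called (1986 ± 446 TPM in Control, 1321 ± 95.5 TPM in TNF, SD, n = 3 each). By the edgeR test described below, 32.4% of all tested genes were called in either direction. TPM is a transcript level corrected for length and depth. The endothelial and epithelial lists had 2 of 8 and 1 of 8 markers listed. The epithelial one, Krt19, fell from 40.0 ± 10.9 TPM in Control to 11.8 ± 2.29 TPM in TNF (SD, n = 3 each; adjusted p = 9.06e-05 by edgeR). The endothelial ones, Kdr and Vwf, summed to at most 0.544 TPM in any library. Both fell by edgeR, but limma on log2(TPM + 1) called 0 of them. In such mixed bulk RNA, fewer cells of a type and less RNA per cell cannot be told apart.

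Of the 9 genes, 2 rose and 4 fell in TNF libraries. Among ligands Fgf1 rose 2.40-fold, while Fgf2 and Fgf18 were 1.75-fold and 2.47-fold lower. Among receptors Fgfr1 rose 1.28-fold, and Fgfr2 and Fgfr3 were 1.52-fold and 2.0-fold lower. Fgf7, Fgf10 and Fgfrl1 did not pass the test. The calls come from edgeR's quasi-likelihood test of counts with Benjamini-Hochberg adjustment over all 15547 tested genes, at an adjusted p under 0.05. By the same rule 32.4% of all tested genes were called, 16.0% higher and 16.4% lower in TNF. The median log2 fold change was -0.22 over the 9 genes and -0.005 over all tested genes. The depth-scaled counts (CPM, with TMM factors) of both groups were fully separated in 7 of the 9 genes, as they were in 48.7% of all tested genes.

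**Figure D1:**
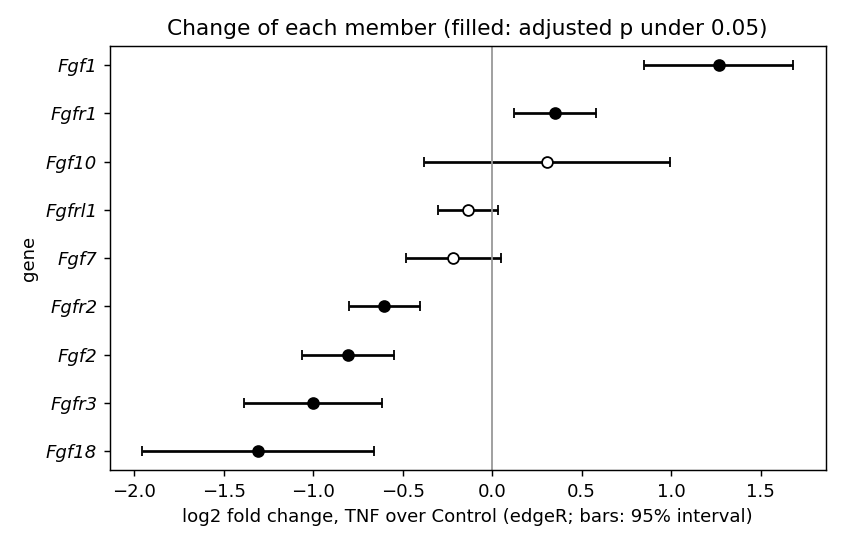
Log2 fold change of TNF over Control for each of the 9 genes (points) with its 95% interval (bars), from edgeR on 3 libraries per group; filled points have an adjusted p under 0.05. Fgf1 and Fgfr1 lie to the right of 0, Fgfr2, Fgf2, Fgfr3 and Fgf18 to the left, and the intervals of Fgf10, Fgfrl1 and Fgf7 cross 0.

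Levels of the 9 genes spanned more than 3 orders of size. In Control libraries the order of mean TPM was Fgf7, Fgfr1, Fgfr2, Fgfrl1, Fgf2, Fgf18, Fgfr3, Fgf1 and Fgf10. No 2 neighbours in that order overlapped in their library values. In TNF libraries Fgf1 stood above Fgfr3, and Fgf18 and Fgf1 overlapped. Fgf7 exceeded 98.0% of listed genes in mean TPM in Control and 97.5% in TNF, whereas Fgf10 exceeded 5.29% and 6.51%.

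**Figure D2:**
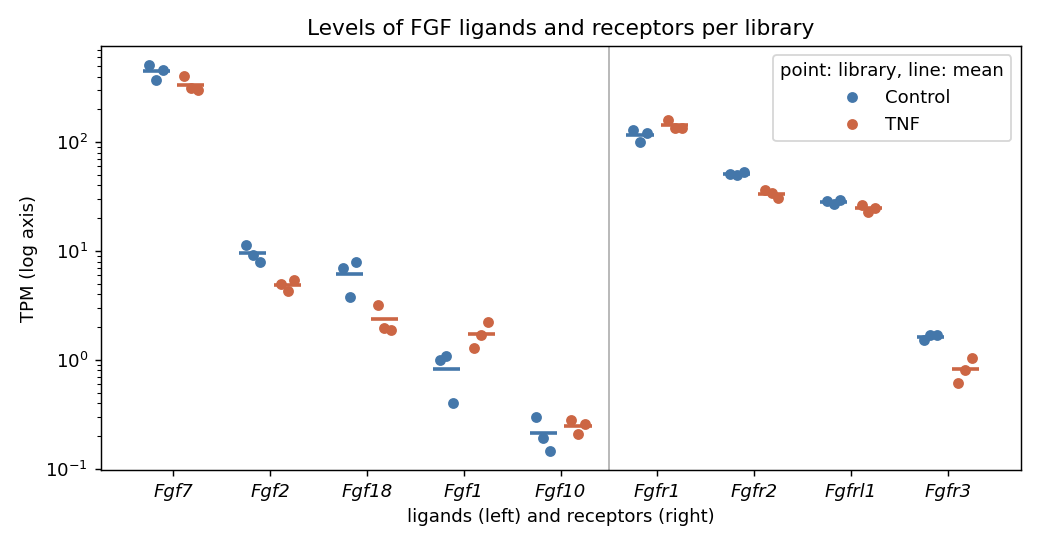
TPM on a log axis for the 5 ligands (left) and 4 receptors (right), with a point for each library and a line at the group mean, 3 libraries per group. Fgf7 is the highest gene in every library at 301 to 509 TPM, and Fgf10 the lowest at 0.146 to 0.296 TPM.

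Fgf7 (keratinocyte growth factor; ENSMUSG00000027208) had 509, 376 and 459 TPM in Control libraries 1, 2 and 3 and 401, 312 and 301 TPM in TNF libraries 1, 2 and 3. TNF library 1 lay above Control library 2, so the groups overlapped. Its log2 fold change was -0.22 (95% interval -0.48 to 0.05, adjusted p = 0.185 by edgeR). Without Control library 2 and TNF library 2 the value was -0.32 and passed the test (adjusted p = 0.0387 by edgeR).

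Fgf7 made up 96.2%, 96.3% and 96.5% of the summed TPM of the 7 secreted FGFs listed in the Control libraries, and 97.5%, 97.3% and 96.7% in the TNF libraries. The groups did not overlap in this share. The mean difference was 0.82 percentage points, and an exact permutation test (two-sided) gave p = 0.1, the smallest that 3 against 3 libraries allow. The secreted FGFs other than Fgf7 summed to 17.0 ± 2.79 TPM in Control and 9.74 ± 0.868 TPM in TNF (SD, n = 3 each).

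Fgf10 (ENSMUSG00000021732), of the same ligand subfamily as Fgf7, was barely detected, with 39, 37 and 19 counts in Control and 33, 22 and 35 in TNF libraries. These equal 0.296, 0.192 and 0.146 TPM against 0.281, 0.206 and 0.257 TPM. The groups overlapped, and the log2 fold change of 0.31 had a 95% interval of -0.38 to 0.99 (adjusted p = 0.467 by edgeR). On the log2 scale the ratio of Fgf7 to Fgf10 TPM was 11.1 ± 0.460 in Control and 10.4 ± 0.194 in TNF libraries (SD, n = 3 each; exact permutation p = 0.1). The difference of -0.69 became -0.43 without Control library 3, where Fgf10 had 19 counts. With counts in place of TPM it was -0.58.

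Fgf2 (basic FGF, a mitogen of stromal cells; ENSMUSG00000037225) had 11.4, 9.17 and 8.01 TPM in Control and 4.97, 4.33 and 5.44 TPM in TNF libraries. Every TNF library lay below every Control library. Its log2 fold change was -0.81 ± 0.11 (SE; adjusted p = 0.00074 by edgeR). In the GENCODE M21 annotation 9.44% of its exon bases are shared with Nudt6 on the opposite strand. Nudt6 had 2.65 ± 0.622 TPM in Control and 3.36 ± 0.701 TPM in TNF (SD, n = 3 each; adjusted p = 0.281 by edgeR). Fgfr3 shares 13.9% of its exon bases with G630022F23Rik on the opposite strand, and Fgfr2 shares 3.04% with Ctbp2 on the same strand. The library kit keeps strand per the labels, but strand use in counting is not given in the sources used here. Strand would not separate the part that Fgfr2 shares with Ctbp2, whose level is not reported here.

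Fgf18 (a ligand of bone and cartilage growth; ENSMUSG00000057967) had the largest fall of the 9. Its level was 6.97, 3.77 and 7.90 TPM in Control and 3.22, 1.96 and 1.87 TPM in TNF libraries. Control library 2 was the lowest Control value, yet the groups did not overlap. The log2 fold change was -1.31 ± 0.28 (SE; adjusted p = 0.0078 by edgeR).

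Fgf1 (acidic FGF, which binds all FGF receptors; ENSMUSG00000036585) had the largest rise. It was counted 58, 91 and 51 times in Control and 112, 103 and 148 times in TNF libraries, or 0.974, 1.20 and 0.896 CPM against 2.23, 2.63 and 2.58 CPM. All TNF values lay above all Control values, with a log2 fold change of 1.27 ± 0.18 (SE; adjusted p = 0.000867 by edgeR). In TPM the values were 0.992, 1.07 and 0.405 in Control and 1.28, 1.70 and 2.21 in TNF libraries.

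Control library 3 stood apart for Fgf1 in TPM more than in CPM. The log2 ratio of counts to TPM, centred on the median library, was 0.86 there and 0.50 in TNF library 1. Elsewhere it lay between -0.28 and 0.11. For the other 8 genes this ratio stayed between -0.17 and 0.17. By the definition of TPM, such a ratio moves with the transcript length assigned in the authors' processing, which CPM does not use. On log2(TPM + 1), a scale that understates low genes, limma gave Fgf1 a change of 0.59 (adjusted p = 0.0314).

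Fgfr1 (the main FGF receptor of mesenchymal cells; ENSMUSG00000031565) had 128, 100.05 and 123 TPM in Control and 161, 134 and 135 TPM in TNF libraries. The groups did not overlap, and the log2 fold change was 0.35 ± 0.10 (SE; adjusted p = 0.027 by edgeR). This call was the least stable of the 6. It was lost without Control library 1 (adjusted p = 0.0767), Control library 3 (0.0521), TNF library 1 (0.125) or TNF library 2 (0.0607), all by edgeR. Scaling by library totals gave 0.26 with adjusted p = 0.274, and limma on log2(TPM + 1) gave 0.30 with adjusted p = 0.191.

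Fgfr2 (a receptor with epithelial and mesenchymal splice forms; ENSMUSG00000030849) had 50.8, 50.02 and 53.7 TPM in Control and 36.3, 33.9 and 30.6 TPM in TNF libraries. The Control libraries lay close together and above every TNF library. Its log2 fold change was -0.60 ± 0.09 (SE; adjusted p = 0.000841 by edgeR). These gene values sum the splice forms. Esrp2, whose protein favours the IIIb form, was listed at 0.193 ± 0.0912 TPM in Control (SD, n = 3). Of the 4 listed splicing regulators, Esrp2, Rbfox2, Ptbp1 and Celf1, 0 passed edgeR's test, 0 had an unadjusted p under 0.05 (lowest 0.456, for Ptbp1), and DESeq2 and limma-voom called 0.

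Fgfr3 (the receptor that restrains cartilage growth; ENSMUSG00000054252) had 1.52, 1.70 and 1.69 TPM in Control and 0.611, 0.815 and 1.03 TPM in TNF libraries. The groups did not overlap, and the log2 fold change was -0.999 ± 0.169 (SE; adjusted p = 0.0022 by edgeR). Of 8 chondrocyte markers 5 were listed, and all 5 (Col2a1, Sox9, Matn3, Col10a1 and Comp) fell. Their summed level was 249 to 299 TPM in Control and 148 to 176 TPM in TNF libraries. Of 8 osteoblast markers 5 fell and 3 did not pass the test, with a median log2 fold change of -1.19 over the 8. Over all tested genes 16.4% were called lower. Sp7 went from 4.90 ± 0.306 to 0.305 ± 0.0727 TPM and Ibsp from 16.3 ± 1.57 to 1.52 ± 0.316 TPM (SD, n = 3 each). The summed levels, 1300 to 1548 TPM and 1076 to 1260 TPM, were mostly Spp1, which was not called (1302 ± 138 and 1124 ± 90.5 TPM). The part of either marker list in the falls of Fgf18, Fgfr2 and Fgfr3 was not tested.

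Fgfrl1 (a receptor without the kinase domain; ENSMUSG00000008090) had 29.0, 26.9 and 29.4 TPM in Control and 26.2, 23.0 and 24.98 TPM in TNF libraries. Its groups did not overlap, but the difference was small. The log2 fold change was -0.13 (95% interval -0.30 to 0.03, adjusted p = 0.194 by edgeR).

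Fgfr1 held a larger part of the signalling receptor mRNA in every TNF library than in any Control library. Its share of the summed TPM of Fgfr1, Fgfr2 and Fgfr3 was 71.0%, 65.9% and 68.9% in Control and 81.4%, 79.5% and 81.0% in TNF libraries. The mean difference was 12.02 percentage points. The exact permutation test (two-sided) gave p = 0.1, the smallest possible with 3 against 3. Fgfr2 made up 30.4 ± 2.41% in Control and 18.9 ± 0.983% in TNF (SD, n = 3 each). Fgfr3 made up 0.972 ± 0.141% and 0.470 ± 0.157%.

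The ratio of Fgfr1 to Fgfr2 TPM was 2.52, 2.0 and 2.28 in Control and 4.44, 3.96 and 4.41 in TNF libraries. The groups lay far apart relative to their spread. On the log2 scale the mean ratio was 1.18 in Control and 2.09 in TNF (exact permutation p = 0.1). The 4 exact tests of shares and ratios each gave p = 0.1, and 0.1 after Benjamini-Hochberg adjustment over the 4. The Fgfr1 share and the Fgfr1 to Fgfr2 ratio draw on the same receptor values, so they are not independent tests. Nor are the Fgf7 share and the Fgf7 to Fgf10 ratio, which draw on the same ligand values. The summed receptor level was 170 ± 15.9 TPM in Control and 178 ± 17.7 TPM in TNF (SD, n = 3 each), which differ by less than 1 SD.

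**Figure D3:**
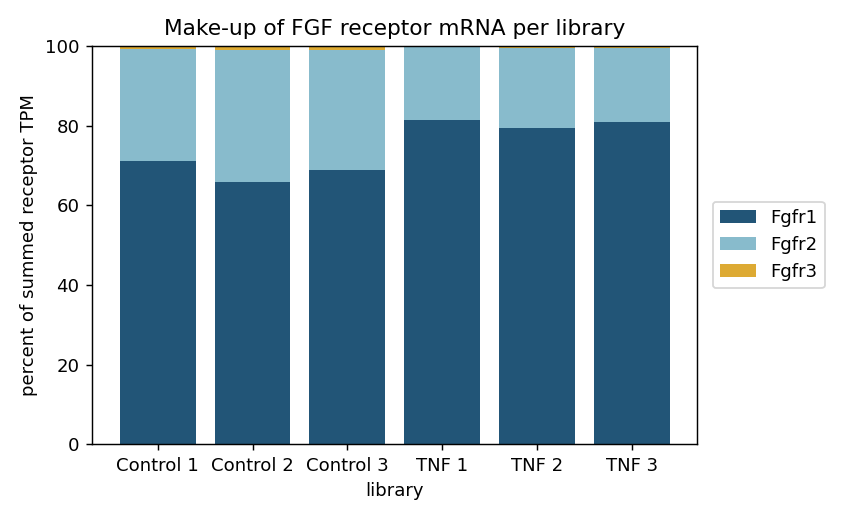
Percent of the summed TPM of Fgfr1, Fgfr2 and Fgfr3 held by each receptor, in a stacked bar for each of the 6 libraries. The Fgfr1 part reaches 65.9% to 71.0% in Control libraries and 79.5% to 81.4% in TNF libraries.

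The sequences before the transcription start of the 4 genes that fell together, Fgf2, Fgf18, Fgfr2 and Fgfr3, are shown because NF-kB and AP-1 are the factors through which TNF receptors are known to act. RefSeq windows on GRCm38.p6 were used for 7 of the 9 genes, without Fgf1 and Fgfr1, the 2 that rose, and the authors' files use GRCm39, so these coordinates belong to GRCm38.p6 only. Each sequence is the 250 bases before the start, 5′ to 3′ on the gene's strand, and capitals mark the GC box GGGCGG or its reverse complement. Fgfr3 is shown at the first of its 2 starts in this set. Any start of these genes outside the set, as may exist for Fgfr2, was not searched.
Fgf2 (chr3:37348403-37348652, plus strand): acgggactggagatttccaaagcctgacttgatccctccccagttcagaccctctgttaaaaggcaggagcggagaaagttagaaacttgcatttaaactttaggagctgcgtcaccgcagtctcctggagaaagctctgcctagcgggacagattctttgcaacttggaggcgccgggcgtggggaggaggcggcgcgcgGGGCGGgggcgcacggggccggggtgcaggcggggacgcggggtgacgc
Fgf18 (chr11:33147401-33147650, minus strand): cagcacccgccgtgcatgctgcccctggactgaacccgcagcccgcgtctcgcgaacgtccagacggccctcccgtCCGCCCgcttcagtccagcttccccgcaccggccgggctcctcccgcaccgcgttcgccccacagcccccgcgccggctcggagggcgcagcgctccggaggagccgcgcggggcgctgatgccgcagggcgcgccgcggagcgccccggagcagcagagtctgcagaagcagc
Fgfr2 (chr7:130266809-130267058, minus strand): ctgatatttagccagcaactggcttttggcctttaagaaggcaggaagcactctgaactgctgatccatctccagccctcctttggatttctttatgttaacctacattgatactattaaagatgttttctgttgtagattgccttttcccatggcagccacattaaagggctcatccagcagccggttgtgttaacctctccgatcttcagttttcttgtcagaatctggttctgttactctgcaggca
Fgfr3 (chr5:33721474-33721723, plus strand): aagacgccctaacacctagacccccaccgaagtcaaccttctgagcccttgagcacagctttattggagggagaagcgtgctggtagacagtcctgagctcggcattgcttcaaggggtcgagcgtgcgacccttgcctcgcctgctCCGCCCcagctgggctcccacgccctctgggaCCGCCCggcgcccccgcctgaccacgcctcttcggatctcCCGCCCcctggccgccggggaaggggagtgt
The windows differed in base composition, with 44.0% G and C in Fgfr2, 62.4% in Fgf2, 66.8% in Fgfr3 and 77.2% in Fgf18, against a median of 52.4% over all 32851 windows. A GC box was present once in Fgf2 and in Fgf18, 3 times in Fgfr3 and not in Fgfr2, and 32.7% of all windows hold one. At the second start of Fgfr3 there were 2 GC boxes, overlapping each other. In the 8 windows of the 7 genes, both strands were searched for the NF-kB consensus (in 3.90% of all windows), the AP-1 motif TGANTCA (6.75%) and the TATA box TATAAA (12.4%). None of these letters were found, which describes these windows alone and says nothing of Fgf1 and Fgfr1.

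Over the whole family of 18 secreted FGFs, 7 were listed. The 2 beyond the genes above were Fgf22, which did not pass edgeR's test (adjusted p = 0.808), and Fgf23. Fgf23 encodes a bone hormone that lowers blood phosphate, and it rose (adjusted p = 0.0014 by edgeR). Its counts were 1, 3 and 0 in Control and 14, 13 and 20 in TNF libraries. The ratio of summed, depth-scaled counts was 15.4, with an exact (Clopper-Pearson) 95% interval of 5.62 to 58.7 that covers counting error only. Its level was low in both groups, at most 0.358 TPM.

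The intracellular homologues, which are not secreted, went opposite ways. Fgf13 went from 8.47 ± 0.679 to 10.9 ± 1.43 TPM (SD, n = 3 each) and rose by 0.72 on the log2 scale of counts (adjusted p = 0.000633 by edgeR). That call was lost when TPM was tested with limma, where log2(TPM + 1) gave adjusted p = 0.125. Fgf11 fell by 1.06 on the log2 scale (adjusted p = 0.012 by edgeR), from 1.24 ± 0.280 to 0.565 ± 0.189 TPM. Fgfr4 and the klotho co-receptors Kl and Klb were not analysed here.

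Transcripts of proteins that hold or modify FGFs outside the cell changed in both directions. Of 7 co-receptors and binding proteins tested 1 rose and 4 fell, against 32.4% of all tested genes called in either direction. Their median log2 fold change was -0.44. Ncam1 and Cdh2, adhesion molecules that can bind FGFR1, fell by 0.91 and 0.44 (log2; adjusted p of 3.97e-05 and 0.0051 by edgeR). Fgfbp3, a carrier that frees FGF from matrix, fell by 0.52 (adjusted p = 0.0112 by edgeR). Flrt1 fell by 1.64 and Flrt3 rose by 0.61, the latter with adjusted p = 0.0603 by limma on log2(TPM + 1). Flrt2 and Nptn did not pass (edgeR adjusted p of 0.689 and 0.0667).

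Of 11 heparan sulfate core proteins 2 rose and 4 fell, against 32.4% of all tested genes called in either direction. Their median log2 fold change was -0.05. Sdc2 went from 369 ± 35.6 to 155 ± 19.7 TPM and Sdc4 from 71.1 ± 9.91 to 174 ± 3.13 TPM (SD, n = 3 each). The 2 syndecans exchanged order, though in TNF library 3 they were nearly level at 168 and 171 TPM. The glypicans Gpc1, Gpc6 and Gpc2 fell by 1.10, 1.17 and 0.83 on the log2 scale, and agrin (Agrn) rose by 0.98 (largest edgeR adjusted p 0.0049, for Gpc2). Without Control library 2 the count of higher genes was 4 in place of 2.

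Of 17 enzymes of heparan sulfate synthesis and editing 4 rose and 2 fell, a share of calls near the 32.4% of all tested genes. Their median log2 fold change was 0.16. Ext1, which elongates the chain, went from 203 ± 61.1 to 405 ± 51.1 TPM, and Hs6st2, a 6-O-sulfotransferase, from 90.1 ± 5.40 to 143 ± 16.0 TPM (SD, n = 3 each). Hs3st1 and Ndst1 rose by 0.74 and 0.27 on the log2 scale. Hpse (heparanase, which cuts the chain) fell by 1.86, and Sulf2, which removes 6-O-sulfate, by 0.36 (adjusted p of 0.000215 and 0.0466 by edgeR). The call of Sulf2 was lost whichever of the 6 libraries was left out (adjusted p up to 0.114 by edgeR). That of Ndst1 was lost without each library but Control 2 (up to 0.0796), and Ndst1 had adjusted p = 0.267 by limma on log2(TPM + 1). Without Control library 2 the count of higher enzymes was 8.

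Of 22 genes that relay the signal inside the cell 2 rose and 4 fell, also a share near the 32.4% of all tested genes. Their median log2 fold change was 0.01. Map2k1 (MEK1) rose by 0.67 (adjusted p = 0.00024 by edgeR) and the adaptor Grb2 by 0.35. The adaptors Shc1, Frs2 and Gab1 fell by 0.67, 0.47 and 0.33, and Mapk3 (ERK1) by 0.43. Without TNF library 1 the counts were 1 higher and 2 lower, with Grb2, Gab1 and Mapk3 not called (adjusted p of 0.0564, 0.0667 and 0.0858 by edgeR). Mapk3 was also not called without TNF library 2 (0.081), and Grb2 not with library totals as scaling (0.226). On log2(TPM + 1) limma gave Grb2 and Gab1 adjusted p of 0.317 and 0.0566.

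Of 13 genes listed as inhibitors of FGF receptor signalling 3 rose and 2 fell, a share of calls near the 32.4% of all tested genes. Their median log2 fold change was 0.06. Dusp4 rose by 0.66, Spred3 by 0.61 and Spry2 by 0.36 (edgeR adjusted p of 0.000645, 0.0135 and 0.0269), and Spry4 and Sh2b3 fell by 0.43 and 0.27 (0.0165 and 0.0301). Dusp6, an ERK phosphatase, had 12.2 ± 2.64 TPM in Control (SD, n = 3) and did not pass (adjusted p = 0.389 by edgeR). Spry4 was not called without TNF library 1 or TNF library 3 (adjusted p up to 0.0687), and Sh2b3 was called, of the 6 repeats with 1 library left out, only in that without TNF library 2 (up to 0.136). Spry2 lost its call without either of Control libraries 1 and 3 or either of TNF libraries 1 and 2 (up to 0.0961). The lower count was 0 without TNF library 1 or TNF library 3. On log2(TPM + 1) limma gave Spry2 and Spred3 adjusted p of 0.199 and 0.0517.

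Of 10 FGF-responsive transcription factors and related early genes 3 rose and 3 fell, against 32.4% of all tested genes called in either direction. Their median log2 fold change was -0.01. Ier3, which is also a known NF-kB target, went from 32.9 ± 3.56 to 130 ± 16.2 TPM (SD, n = 3 each). Fosl1 and Myc rose by 0.83 and 0.47, and Etv5, Etv1 and Egr1 fell by 0.59, 0.45 and 0.33 (log2; edgeR adjusted p of 0.0178, 0.017 and 0.0154 for the 3 that fell). Etv4 did not pass (adjusted p = 0.945 by edgeR). Without TNF library 1 Etv5 and Etv1 were not called (0.0631 and 0.0685), nor Etv5 without TNF library 3 (0.0559) or Etv1 and Egr1 without Control library 1 (0.0686 and 0.0734). The lower count was then 1 without Control library 1 or TNF library 1. On log2(TPM + 1) limma gave Myc, Etv1 and Egr1 adjusted p of 0.168, 0.0675 and 0.0852.

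**Figure D4:**
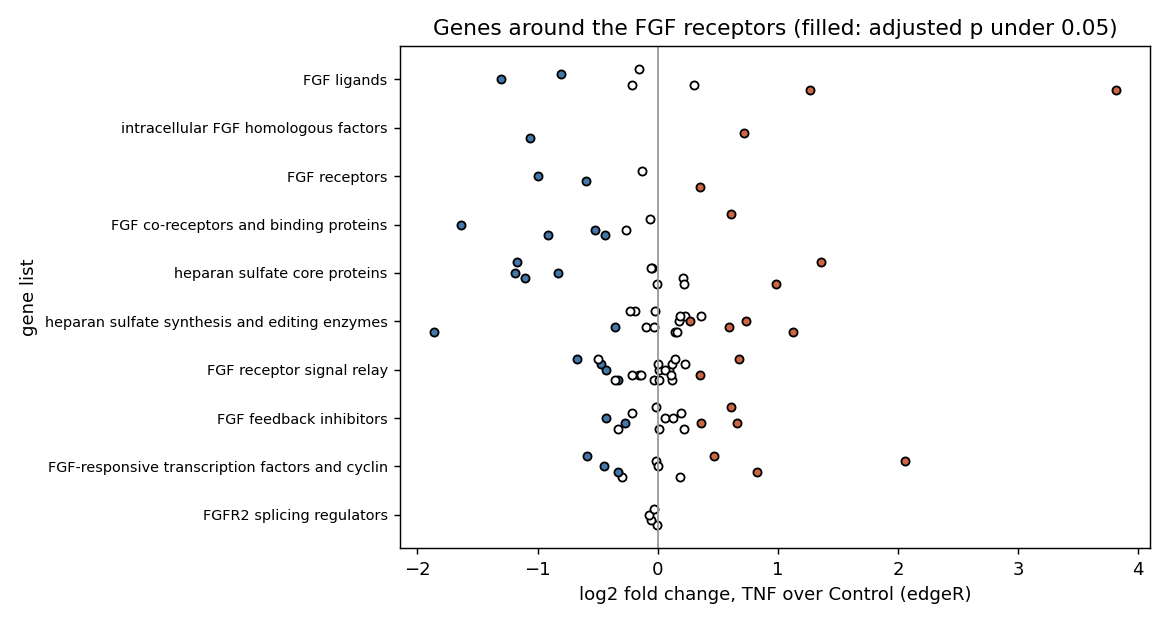
Log2 fold change of TNF over Control for every tested gene of the 10 lists around the FGF receptors (points, spread vertically for sight only); filled points have an edgeR adjusted p under 0.05, orange higher and blue lower. The point farthest right is Fgf23, whose place depends on the fit since it had 4 Control counts in all, and the 4 splicing regulators lie near 0 and are open.

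Over the 6 libraries, genes whose centred log2 CPM lay nearest to a member were sought among 13591 named genes. Nearest to Fgf1 were Msr1, Ankrd33b and Nod1, with a root mean square difference of 0.071, 0.079 and 0.082 on the log2 scale. Nearest to Fgf18 were Csmd3, Tlr9 and Cyp1a1, at 0.133, 0.176 and 0.19. These are descriptions over 6 libraries of 2 groups.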

How the data were processed

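Total RNA of 6 MSC samples was sequenced from SMART-Seq Stranded libraries, per the labels' protocols. Trim Galore, STAR, StringTie, Salmon and build GRCm39 are named in the submitters' processing notes, without versions or settings. The authors deposited estimated counts per gene, written as whole numbers without gene names and titled both normalized and raw, and TPM with gene symbols. Totals differ between libraries, so the first were used as counts. Lines were paired by position, and the 260 zeros of both kinds of file coincided. All listed genes had at least 10 counts in 3 libraries.

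The count model was edgeR's (version 4.0.16, R 4.3.3), with filterByExpr, TMM factors, a two-sided quasi-likelihood test and group as its sole term. The SE is the absolute log2 fold change divided by the square root of F. The procedure was tested on simulated data. Alternatives used limma 3.58.1, DESeq2 1.42.0, other scalings and filters, a replicate block and left-out libraries. Named genes were the 9 members, up to 4 called genes with the smallest adjusted p of each list, every gene where a count was 3 or fewer, and the 3 nearest genes to the members with the largest rise and fall. Markers were named by list order, as the 5 listed chondrocyte markers were. Cxcl12, Sp7, Ibsp, Spp1 and other list genes named beyond this were chosen after their values were seen. Members and lists were chosen with earlier results of these data known. Intervals on counts cover counting error only.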

Additional observations from a re-analysis of the deposited data

How the results depend on the processing

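Of the 6 called members, Fgf1, Fgf2, Fgf18, Fgfr2 and Fgfr3 kept direction and call in all 19 alternatives, and Fgfr1 kept its direction in 19 and its call in 11. No member changed direction. On log2(TPM + 1), which understates low genes, Fgfr3 had -0.54 and Fgf10 0.04. Fgf7, which is not low, had -0.41 there against -0.22 by counts. Its log2 ratio of counts to TPM, centred on the median library, was 0.17 and 0.13 in TNF libraries 2 and 3. Elsewhere that ratio lay between -0.03 and 0.01. Of the uncalled members, Fgf10 and Fgfrl1 stayed uncalled, and Fgf7 was called in 1 alternative. The number of members called higher was 1 in place of 2 with library totals, with limma on log2(TPM + 1) or log2(TPM + 0.1), and between 1 and 2 when 1 library was left out. The members called lower ranged from 4 to 5.

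Over all genes, 2489 were called higher and 2550 lower. Library totals gave 1612 higher and 2571 lower (38.5% of calls higher against 49.4%), limma 1479 higher with a pseudocount of 1 and 1475 with 0.1. Counts in place of TPM, which are not per length, gave a difference of 9.84 percentage points for the Fgfr1 share, against 12.02. For the Fgf7 share they gave 1.83, against 0.82. The cause of these shifts was not tested.

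Deviations of same-numbered libraries from their group means correlated across genes at -0.01, -0.30 and -0.22. Those of differently numbered libraries correlated at -0.23 to 0.36. Deviations within a group of 3 are tied to each other, so these values cannot decide whether replicate numbers pair the samples. With the number as a replicate block, 1987 genes were called higher and 1993 lower, and 1 member higher, since Fgfr1 had adjusted p = 0.0746 by edgeR. TMM factors from uncalled genes, chosen after seeing the data, gave 2 members higher and 4 lower. Fgf10 and Fgf23 had at most 39 and 20 counts in any library.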
